A study of Mus musculus with 12 samples.

Results

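The Z-disc genes described here are 10 genes whose protein products build or anchor the Z-disc, the plate that bounds each sarcomere of striated muscle. They are Actn2, Actn3, Tcap, Ldb3, Pdlim3, Myot, Myoz1, Myoz2, Myoz3 and Des. They were chosen by name for this place in the cell, and no measured value was used in the rule. Earlier results of these data were known when they and the gene lists set beside them below were chosen. All 10 were found among the 22342 protein-coding genes that the annotation places on chromosomes 1 to 19 and X of the mouse genome build mm9.

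Chromatin immunoprecipitation followed by sequencing (ChIP-seq) had been carried out for 6 histone marks in C2C12 cells, a myoblast line from mice of the C3H strain, at passages 15 to 18. Myoblasts were taken near confluence in medium with 10% serum, and myotubes about 5 days after serum was withdrawn, when light trypsin treatment was used to part them from cells that had not fused. There was 1 library for each mark in each cell type, amplified over 15 PCR cycles at a fragment size of about 250 bp including adaptors, without replicates, and input chromatin was not used here. The myoblast libraries of H3K4me3, H3K4me2, H3K27ac, H3K4me1, H3K27me3 and H3K36me3 had 2774474, 4292142, 1858771, 6474855, 7016696 and 7033100 reads, and those of myotubes had 3298694, 4757119, 4725910, 6271899, 5016019 and 4312764 in the same order.

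The Z-disc holds the barbed ends of actin filaments from neighbouring sarcomeres, which alpha-actinin links to each other and to titin. Proteins with PDZ and LIM domains, myotilin and the myozenins bind alpha-actinin, and desmin filaments tie the discs of neighbouring myofibrils together. In active genes H3K4me3 and H3K27ac mark the promoter, H3K4me1 and H3K27ac mark enhancers and H3K36me3 covers the transcribed body, while H3K27me3 is the mark of Polycomb repression.

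Levels are given as fold over the library mean, which is the number of fragment midpoints in a window divided by the number that the average of the library would put there. The promoter window reached 1 kb to either side of the transcription start site (TSS), and the body ran from 1 kb after the TSS to the end of the gene. A ratio is the myotube level over the myoblast level, scaled by the total reads of the libraries. A gene is called higher or lower where the ratio, with 1 read added, passed 2-fold and the libraries together held at least 10 reads. Intervals are exact 95% Poisson or conditional binomial intervals. They cover counting error only, because PCR reads without molecular identifiers are not independent molecules, and they compare 2 libraries, not the cell types. In bulk chromatin, a mark carried by more of the cells and more of the mark in each cell cannot be told apart.

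The labels were first compared with marker genes. At the promoters of 6 myotube markers, Myog, Mef2c, Ckm, Acta1, Myh3 and Tmem8c, H3K4me3 averaged 3-fold over the library mean in myoblasts and 46.8-fold in myotubes, with 39 and 725 reads in sum. All 6 were called higher for H3K4me3, and Acta1, the actin of skeletal muscle, had the most myotube reads (215). Of 6 myoblast or proliferation markers, 4 were called lower for H3K4me3 (Ccna2, Cdk1, Mki67 and Mcm2), and the mean level of the list went from 29.2-fold to 10.9-fold. Its other genes, Myod1 and Myf5, were within 2-fold, and Myod1 had the most reads of the list in myotubes (54).

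Of the lists for other cell types, those of adipocytes and fibroblasts held H3K4me3 above the library mean, and the others held few reads. The adipocyte list had 60 reads in myoblasts and 39 in myotubes, of which Pparg, a nuclear receptor also used outside fat, held 53 and 36, and Fabp4 stood at 0 in both. The fibroblast list had 43 and 54 reads, most of them at Pdgfra (28 and 41), a mean of 6.61-fold and 6.98-fold, and its H3K4me2 averaged 26.1-fold and 11.9-fold beside 18.0-fold and 20.2-fold for the Z-disc genes. Its H3K27ac averaged 12.6-fold and 3.61-fold, beside 20.8-fold and 48.9-fold for the Z-disc genes. Of this list Col1a1 and Pdgfra were called lower for H3K27ac, beside 39.7% of all promoters. H3K4me3 sums were 7 and 5 reads for 3 osteoblast genes (most at Sp7 in myoblasts and Ibsp in myotubes, none at 0), 3 and 11 for 3 cardiac genes (each at 1 in myoblasts, most at Nkx2-5 in myotubes, none at 0), and 7 and 6 for 3 neuron genes (most at Rbfox3 in myoblasts and Syt1 in myotubes, with 1 gene at 0 in myotubes). The 3 liver genes, with Alb and Ttr equal and highest, had 8 and 2 reads, and the 3 blood genes, with most myoblast reads at Cd3e, had 5 and 5, each list with 1 gene at 0 in myotubes. The part of other cell types in the values of the Z-disc genes was not tested.

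In myotubes most of the Z-disc promoters carried H3K4me3 and H3K27ac, and in myoblasts fewer did. Actn3, Ldb3, Des and Pdlim3 overlapped a deposited H3K4me3 peak in both cell types, and Actn2, Tcap and Myoz2 did so in myotubes alone. That made 4 of 10 genes in myoblasts and 7 of 10 in myotubes, beside 48.6% and 48.8% of all promoters. The same 7 genes overlapped a myotube peak of H3K4me2 and of H3K27ac, and the same 4 a myoblast peak, beside 56.7% of all promoters in myoblasts and 52.9% in myotubes for H3K4me2 and 46.0% and 42.2% for H3K27ac. Myot, Myoz1 and Myoz3 had no promoter peak of these 3 marks in either cell type.

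For H3K4me3 the promoters of 6 of the 10 genes were called higher in myotubes, Actn2, Actn3, Tcap, Ldb3, Myoz2 and Pdlim3, beside 4.64% of the 12509 promoters with enough reads. None was called lower, beside 8.55%. Only 7 of the genes had at least 10 reads, and a gene that is high in 1 library passes that minimum through that library. The median log2 ratio of the 10 genes was 2.07, or 1.5 with the gene at 0 myoblast reads set to its bound, and that of all promoters, with or without enough reads, was -0.13. Of all calls 35.2% were higher, and scaling by shared promoters, those that overlap H3K4me3 peaks of both lists, changed the scale of the log2 ratio by 0.21, less for ratios from few reads because of the added read, and this share to 51.7%, and Des, the gene within 2-fold, went from -0.01 to 0.19.

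H3K27ac gave 6 genes called higher, Actn2, Actn3, Tcap, Myoz2, Myoz3 and Pdlim3, beside 6.30% of the 12081 promoters with enough reads, and none called lower, beside 39.7%. The median log2 ratio was 1.71, or 1.48 with genes at 0 myoblast reads at their bound, against -0.31 over all promoters. Scaling by shared promoters changed the scale of H3K27ac by 0.83 in log2, took the share of higher among the calls from 13.7% to 56.4%, and brought the count to 9, beside 1955 of 12081 promoters, by adding Des, Ldb3 and Myoz1.

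For H3K4me2 5 genes were called higher (Actn2, Tcap, Myot, Myoz2 and Myoz3), beside 3.22% of all promoters, and Ldb3 was called lower, beside 35.9%. The median log2 ratio was 1.29 against -0.47. The scale of this mark changed in both directions, by -0.64 in log2 when reads in 10 kb windows outside peaks were used and by 0.69 with shared promoters, and the share of higher calls was 8.24%, 2.61% and 42.9% under the main scaling and these in turn. With shared promoters Ldb3 was no longer called lower, and Myoz1 and Pdlim3 were called higher. With 10 kb windows Actn3 was also called lower. The H3K4me2 log2 ratio of Des, -0.10 under the main scaling, was -0.74 and 0.58 under these in turn, so its direction was not settled. The H3K4me2 call at Myot was lost with 500 bp either side of the TSS and with a minimum of 30 reads. In the window 1 kb downstream of the TSS the call at Myoz3 was lost and Myoz1 was called higher.

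**Figure D1:**
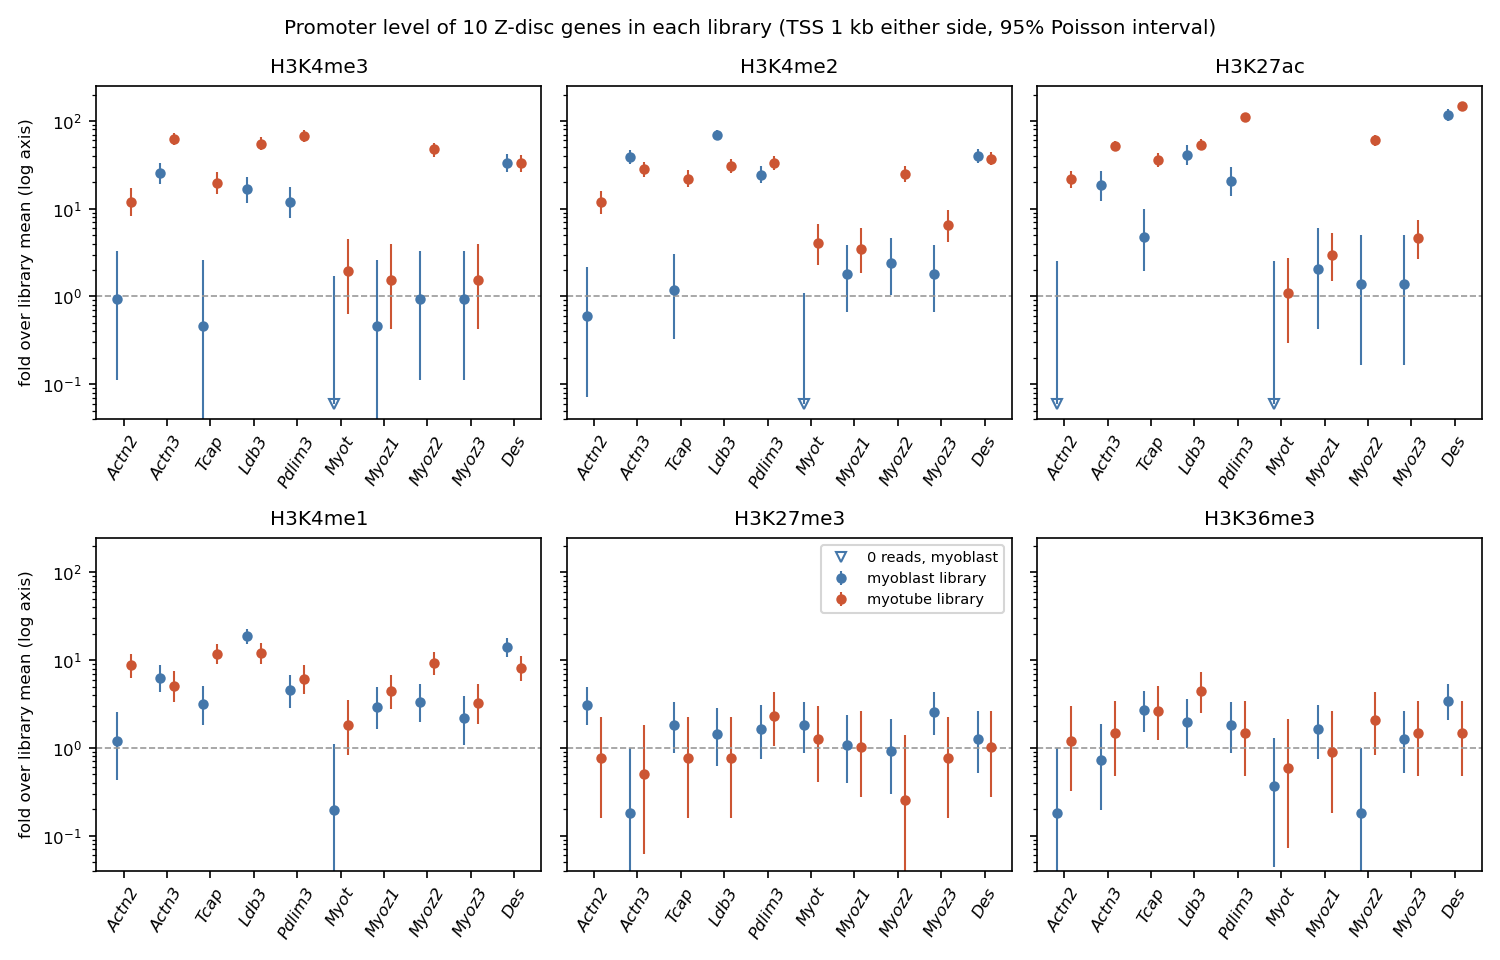
Fold over the library mean (log axis) at the promoter of each of the 10 Z-disc genes, 1 panel per mark, with blue points for the myoblast and red points for the myotube library and bars for the exact 95% Poisson interval; open triangles mark 0 myoblast reads. H3K4me3 reached 67.1-fold at Pdlim3 in myotubes, and Des was high in both cell types (33.2-fold and 33.0-fold).

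**Figure D2:**
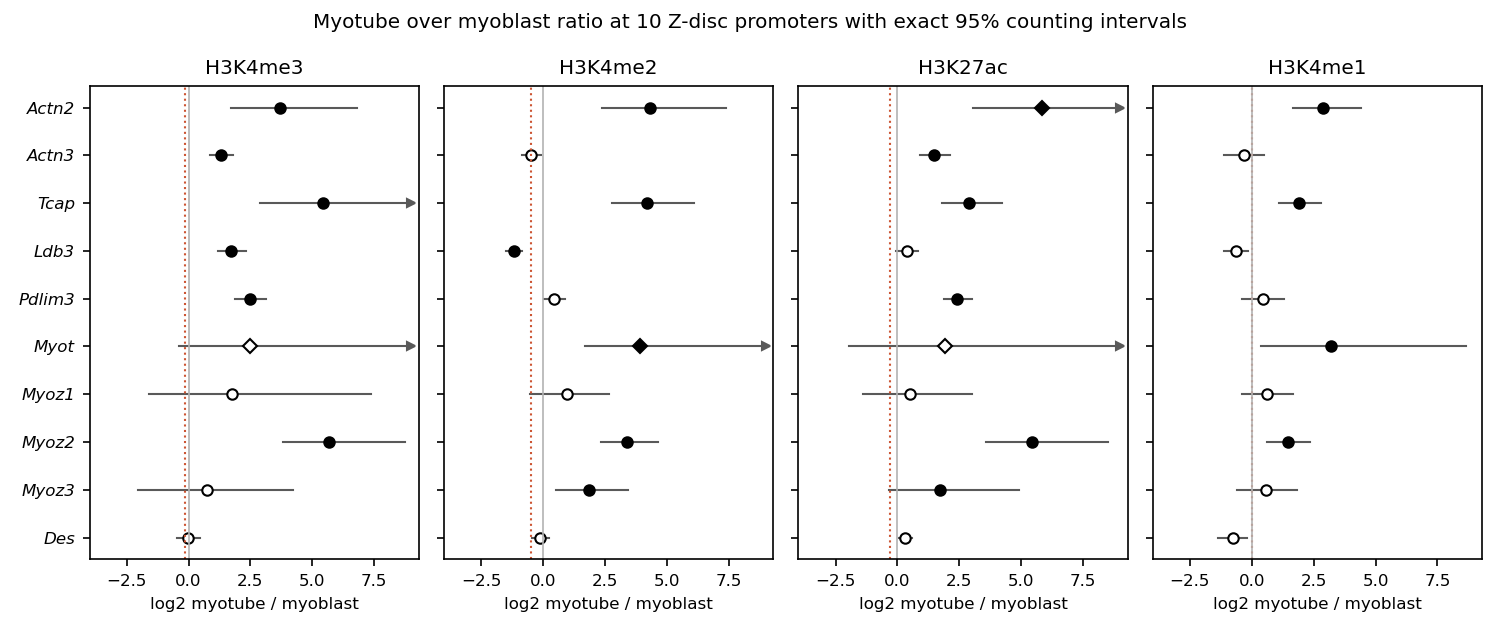
Log2 ratio of the myotube to the myoblast library at the promoter of each gene for H3K4me3, H3K4me2, H3K27ac and H3K4me1, with exact 95% intervals of the read ratio, where arrows mark an interval that runs past the axis and diamonds a gene with 0 myoblast reads, drawn at its ratio with 1 read added. Filled points passed 2-fold with at least 10 reads, open points did not, and the dotted line is the median of all promoters (-0.13 for H3K4me3 and -0.31 for H3K27ac), which scaling by shared promoters brought to 0.00.

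Upstream sequences are shown for genes whose promoters carried an H3K4me3 peak in myotubes, so that the letters can be set beside their marks: Myoz2 and Actn2, which had no such peak in myoblasts, and Pdlim3, Ldb3 and Des, which had it in both cell types. They are RefSeq sequences of build GRCm38.p6, present for 5 of the 10 genes, and each window matched mm9 exactly at 1 place. Entries for Tcap, Actn3, Myot, Myoz1 and Myoz3 were not used here. In mm9 they lie at chr13:12433028-12433249 on the minus strand for Actn2, chr14:35401868-35402117 on the minus strand for Ldb3, chr3:122737909-122738155 on the minus strand for Myoz2, chr1:75356617-75356866 on the plus strand for Des and chr8:46970591-46970838 on the plus strand for Pdlim3. Each is printed 5' to 3', without bases inside the annotated gene, and capitals mark E-boxes (CANNTG, the letters that MyoD and other basic helix-loop-helix factors bind), MEF2 motifs and CArG boxes.
Actn2: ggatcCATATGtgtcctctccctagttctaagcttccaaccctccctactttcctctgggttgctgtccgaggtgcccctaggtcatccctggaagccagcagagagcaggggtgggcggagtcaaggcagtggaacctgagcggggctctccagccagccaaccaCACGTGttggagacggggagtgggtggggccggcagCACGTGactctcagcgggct
Ldb3: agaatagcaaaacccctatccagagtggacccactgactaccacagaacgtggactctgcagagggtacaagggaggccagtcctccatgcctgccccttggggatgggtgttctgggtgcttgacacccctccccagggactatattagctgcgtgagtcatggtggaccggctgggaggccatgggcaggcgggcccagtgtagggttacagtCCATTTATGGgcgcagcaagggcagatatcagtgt
Myoz2: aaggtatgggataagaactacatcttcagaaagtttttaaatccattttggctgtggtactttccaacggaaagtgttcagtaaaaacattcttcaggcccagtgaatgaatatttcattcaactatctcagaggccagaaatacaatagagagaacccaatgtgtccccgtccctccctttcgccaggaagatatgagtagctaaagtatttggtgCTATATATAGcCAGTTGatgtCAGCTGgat
Des: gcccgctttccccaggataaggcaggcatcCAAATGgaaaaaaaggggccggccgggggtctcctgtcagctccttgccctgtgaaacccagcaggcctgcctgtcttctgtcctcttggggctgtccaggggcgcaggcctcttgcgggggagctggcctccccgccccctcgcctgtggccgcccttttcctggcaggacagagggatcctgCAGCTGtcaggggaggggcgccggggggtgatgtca
Pdlim3: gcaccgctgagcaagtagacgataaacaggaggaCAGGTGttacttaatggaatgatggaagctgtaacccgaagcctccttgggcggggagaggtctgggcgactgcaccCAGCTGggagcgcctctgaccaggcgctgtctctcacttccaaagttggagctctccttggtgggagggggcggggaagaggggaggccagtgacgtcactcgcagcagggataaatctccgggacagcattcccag
Positions are the first base of a match, counted back from the RefSeq start within 250 bases, and both strands were searched. The E-boxes of Myoz2 stood at -22 and -12, just after a MEF2 motif at -33. Those of Des stood at -220 and -36, those of Pdlim3 at -216 and -139, and those of Actn2 at -245, -84 and -48. The E-boxes at -12 in Myoz2, -36 in Des and -139 in Pdlim3 read CAGCTG. Ldb3 had no E-box in this window and a CArG box at -35 from the RefSeq start printed, which lies at -74 bp from the TSS used for the marks, and the same box is at -109 from the RefSeq start at that TSS. The RefSeq start of Des lies at -37 bp from the TSS used. The MCAT motif CATTCC, not capitalised, was matched in Pdlim3 alone of these 5, at -201 and -11. No E-box overlapped another of the motifs. Of 32851 promoter windows of this length, 66.2% held an E-box, 13.0% CAGCTG, 2.92% a MEF2 motif, 1.47% a CArG box and 12.6% MCAT, so that an E-box is found in most promoters. A match is a match of letters and not a measured binding site.

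The ratio of observed to expected CpG in the promoter window was below the median of all promoters (0.477) in 9 of the 10 genes, from 0.125 at Myot to 0.417 at Actn2, and above it at Des (0.605). GC content ran from 40% at Myot to 60.3% at Des, with a median of 51.4% over all promoters.

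Actn2 (ENSMUSG00000052374.8, chr13:12361693-12433027, minus strand) encodes the alpha-actinin of cardiac and skeletal muscle, which crosslinks actin at the Z-disc. Its promoter held 2 H3K4me3 reads in myoblasts, 0.922-fold the library mean (0.112 to 3.33), and 31 in myotubes, 12.02-fold (8.17 to 17.1). H3K27ac went from 0 reads, where 3 reads would be 2.06-fold, to 80 reads and 21.6-fold (17.2 to 26.9), and H3K4me2 from 0.596-fold to 11.8-fold. These 3 marks could not be told from the library mean in myoblasts and were above it in myotubes. The ratio was 13.0 for H3K4me3 (3.32 to 112) and 19.9 for H3K4me2 (5.18 to 169), and H3K27ac was at least 10.5-fold higher when its 0 myoblast reads were set to a floor of 3, with an exact lower limit of 8.34.

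H3K27me3 at the Actn2 promoter ran the other way, from 17 reads and 3.10-fold (1.80 to 4.96) in myoblasts to 3 reads and 0.765-fold (0.158 to 2.24) in myotubes. Its myoblast level was above that of 89.7% of all promoters and was the highest of the 10 genes, and the ratio was 0.247 (0.0464 to 0.854). H3K4me1 was 1.18-fold and 8.76-fold, a ratio of 7.40 (3.14 to 21.3). Over the body of Actn2, H3K36me3 stood at 0.507-fold (0.412 to 0.618) in myoblasts and at 5.27-fold (4.87 to 5.70) in myotubes, a ratio of 10.4 (8.39 to 13.0). In myotubes it grew along the gene, from 2.40-fold in the part nearest the start to 5.11-fold in the middle and 8.30-fold in the part nearest the end, when the body was cut into 3 equal parts. H3K27ac was ordered the opposite way along the same parts, at 19-fold, 6.91-fold and 1.69-fold. Over the whole body H3K27ac had 32 reads in myoblasts and 1193 in myotubes, a ratio of 14.7 (10.3 to 21.5).

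Actn3 (ENSMUSG00000006457.3, chr19:4861223-4877909, minus strand) encodes the alpha-actinin of fast muscle fibres. Its promoter was already marked in myoblasts, with 55 H3K4me3 reads and 25.4-fold (19.1 to 33.0), and stood at 162 reads and 62.8-fold (53.5 to 73.3) in myotubes. H3K27ac was 18.6-fold (12.2 to 27) and 51.9-fold (44.9 to 59.8). Both marks were high in both cell types and higher in myotubes, with ratios of 2.48 (1.81 to 3.43) at H3K4me3 and 2.80 (1.86 to 4.35) at H3K27ac. H3K4me2 was 39.0-fold and 28.2-fold, a log2 ratio of -0.46, which became -1.09 with scaling by 10 kb windows and 0.22 with shared promoters.

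The start of Zdhhc24, which encodes a palmitoyltransferase of the zinc finger DHHC family, lies on the other strand at -759 bp from the Actn3 TSS, so the upstream side of the window takes in reads of both genes. Upstream of the Actn3 TSS there were 37 and 38 H3K4me3 reads, a ratio of 0.864 (0.535 to 1.40), and downstream there were 18 and 124, a ratio of 5.79 (3.52 to 10.1). For H3K27ac the ratio was 1.34 (0.802 to 2.33) upstream and 6.97 (3.28 to 17.7) downstream, with 7 and 124 reads. Under the main scaling both marks therefore differed more on the side inside Actn3, and both upstream intervals take in 1. Scaling by shared promoters changed the scale of H3K27ac by 0.83 in log2, which applies to both sides. H3K36me3 over the body was 5.12-fold (4.47 to 5.85) in myoblasts and 12.9-fold (11.6 to 14.4) in myotubes, a ratio of 2.52 (2.12 to 3.00), and in both libraries the part nearest the end was the highest, at 7.17-fold and 19.2-fold.

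Tcap (ENSMUSG00000007877.2, chr11:98245125-98246267, plus strand) encodes telethonin, which caps the ends of a pair of titin molecules in the Z-disc. The gene is 1143 bp long, so it has no body window. H3K4me3 was at 1 read and 0.461-fold (0.0117 to 2.57) in myoblasts and at 51 reads and 19.8-fold (14.7 to 26.0) in myotubes. H3K27ac was at 4.81-fold (1.94 to 9.92) and 35.98-fold (30.1 to 42.6), and H3K4me2 at 1.19-fold and 22.0-fold. In myoblasts H3K27ac and H3K4me1 (3.16-fold, 1.81 to 5.13) were above the library mean while the intervals of H3K4me3 and H3K4me2 took it in. The ratio was 42.9 for H3K4me3, resting on 1 myoblast read (7.36 to 1727), 18.5 for H3K4me2 (6.96 to 69.5), 7.47 for H3K27ac (3.53 to 18.9) and 3.74 for H3K4me1 (2.12 to 6.98). Of these H3K4me1 was told apart by side, with a ratio of 1.75 (0.842 to 3.78) upstream and 12.4 (3.92 to 62.9) downstream.

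Ldb3 (ENSMUSG00000021798.7, chr14:35339885-35401867, minus strand) encodes ZASP, also called cypher, a PDZ-LIM protein that binds alpha-actinin. In myoblasts its promoter held much H3K4me2, 231 reads and 68.8-fold (60.2 to 78.3), with H3K4me1 at 18.8-fold (15.2 to 22.9), and less H3K4me3, 36 reads and 16.6-fold (11.6 to 23.0). In myotubes H3K4me2 was at 30.6-fold (25.3 to 36.8), H3K4me1 at 12.02-fold (9.15 to 15.5) and H3K4me3 at 142 reads and 55.1-fold (46.4 to 64.9). H3K4me3 and H3K4me2 thus changed in opposite directions at this promoter under the main scaling. The ratio was 3.32 (2.29 to 4.93) for H3K4me3, 0.445 (0.353 to 0.560) for H3K4me2 and 0.641 (0.455 to 0.897), within 2-fold, for H3K4me1. The log2 ratio of H3K4me2 was -1.16, and it was -1.79 with 10 kb windows and -0.48, within 2-fold, with shared promoters and -0.63, also within 2-fold, in a window reaching 2 kb downstream of the TSS.

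The H3K4me3 reads of Ldb3 lay mostly downstream of the TSS, with 25 in myoblasts and 125 in myotubes, a ratio of 4.21 (2.72 to 6.75), against 1.30 (0.574 to 3.07) upstream. H3K27ac at the promoter was 41.3-fold (31.5 to 53.1) and 53.8-fold (46.6 to 61.9), a ratio of 1.30 (0.973 to 1.77) that counting error does not tell from 1. By side the ratio was 2.49 (1.44 to 4.63) upstream and 0.909 (0.635 to 1.32) downstream, and with shared promoters the log2 ratio of the whole window went from 0.38 to 1.20, past 2-fold. H3K36me3 over the body was 6.62-fold (6.23 to 7.02) in myoblasts and 10.2-fold (9.63 to 10.9) in myotubes, a ratio of 1.55 (1.42 to 1.69) that did not reach 2-fold. Unlike at Actn3, the part nearest the start was the highest, at 7.74-fold in myoblasts and 13-fold in myotubes. The part nearest the end stood at 5.77-fold and 7.92-fold. H3K27me3 over the body was below the library mean in myoblasts, 0.754-fold (0.628 to 0.898), and above it in myotubes, 1.62-fold (1.40 to 1.86), and was called higher at 2.14 (1.70 to 2.70).

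Pdlim3 (ENSMUSG00000031636.6, chr8:46970839-47004900, plus strand) encodes ALP, the actinin-associated LIM protein. H3K4me3 at its promoter was 11.98-fold (7.83 to 17.6) in myoblasts and 67.1-fold (57.5 to 77.8) in myotubes, and H3K27ac 20.6-fold (13.9 to 29.5) and 109.8-fold (99.4 to 121). The myotube level of H3K27ac was above that of 99.7% of promoters. Both marks were present in myoblasts and higher in myotubes, by 5.60 (3.69 to 8.81) and 5.32 (3.67 to 7.99). H3K4me2 was 24.4-fold and 33.3-fold, a log2 ratio of 0.44 that was -0.19 with 10 kb windows and 1.13 with shared promoters. Over the body H3K27ac was at the library mean in myoblasts, 0.999-fold (0.640 to 1.49), and at 14.4-fold (13.4 to 15.3) in myotubes, a ratio of 14.4 (9.60 to 22.6). H3K36me3 over the same body was 5.06-fold (4.61 to 5.54) and 5.31-fold (4.72 to 5.95), a ratio of 1.05 (0.904 to 1.22). H3K4me3 and H3K27ac at the start therefore moved further than H3K36me3 over the body of this gene, while H3K4me2 and H3K4me1 at the start were within 2-fold.

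**Figure D3:**
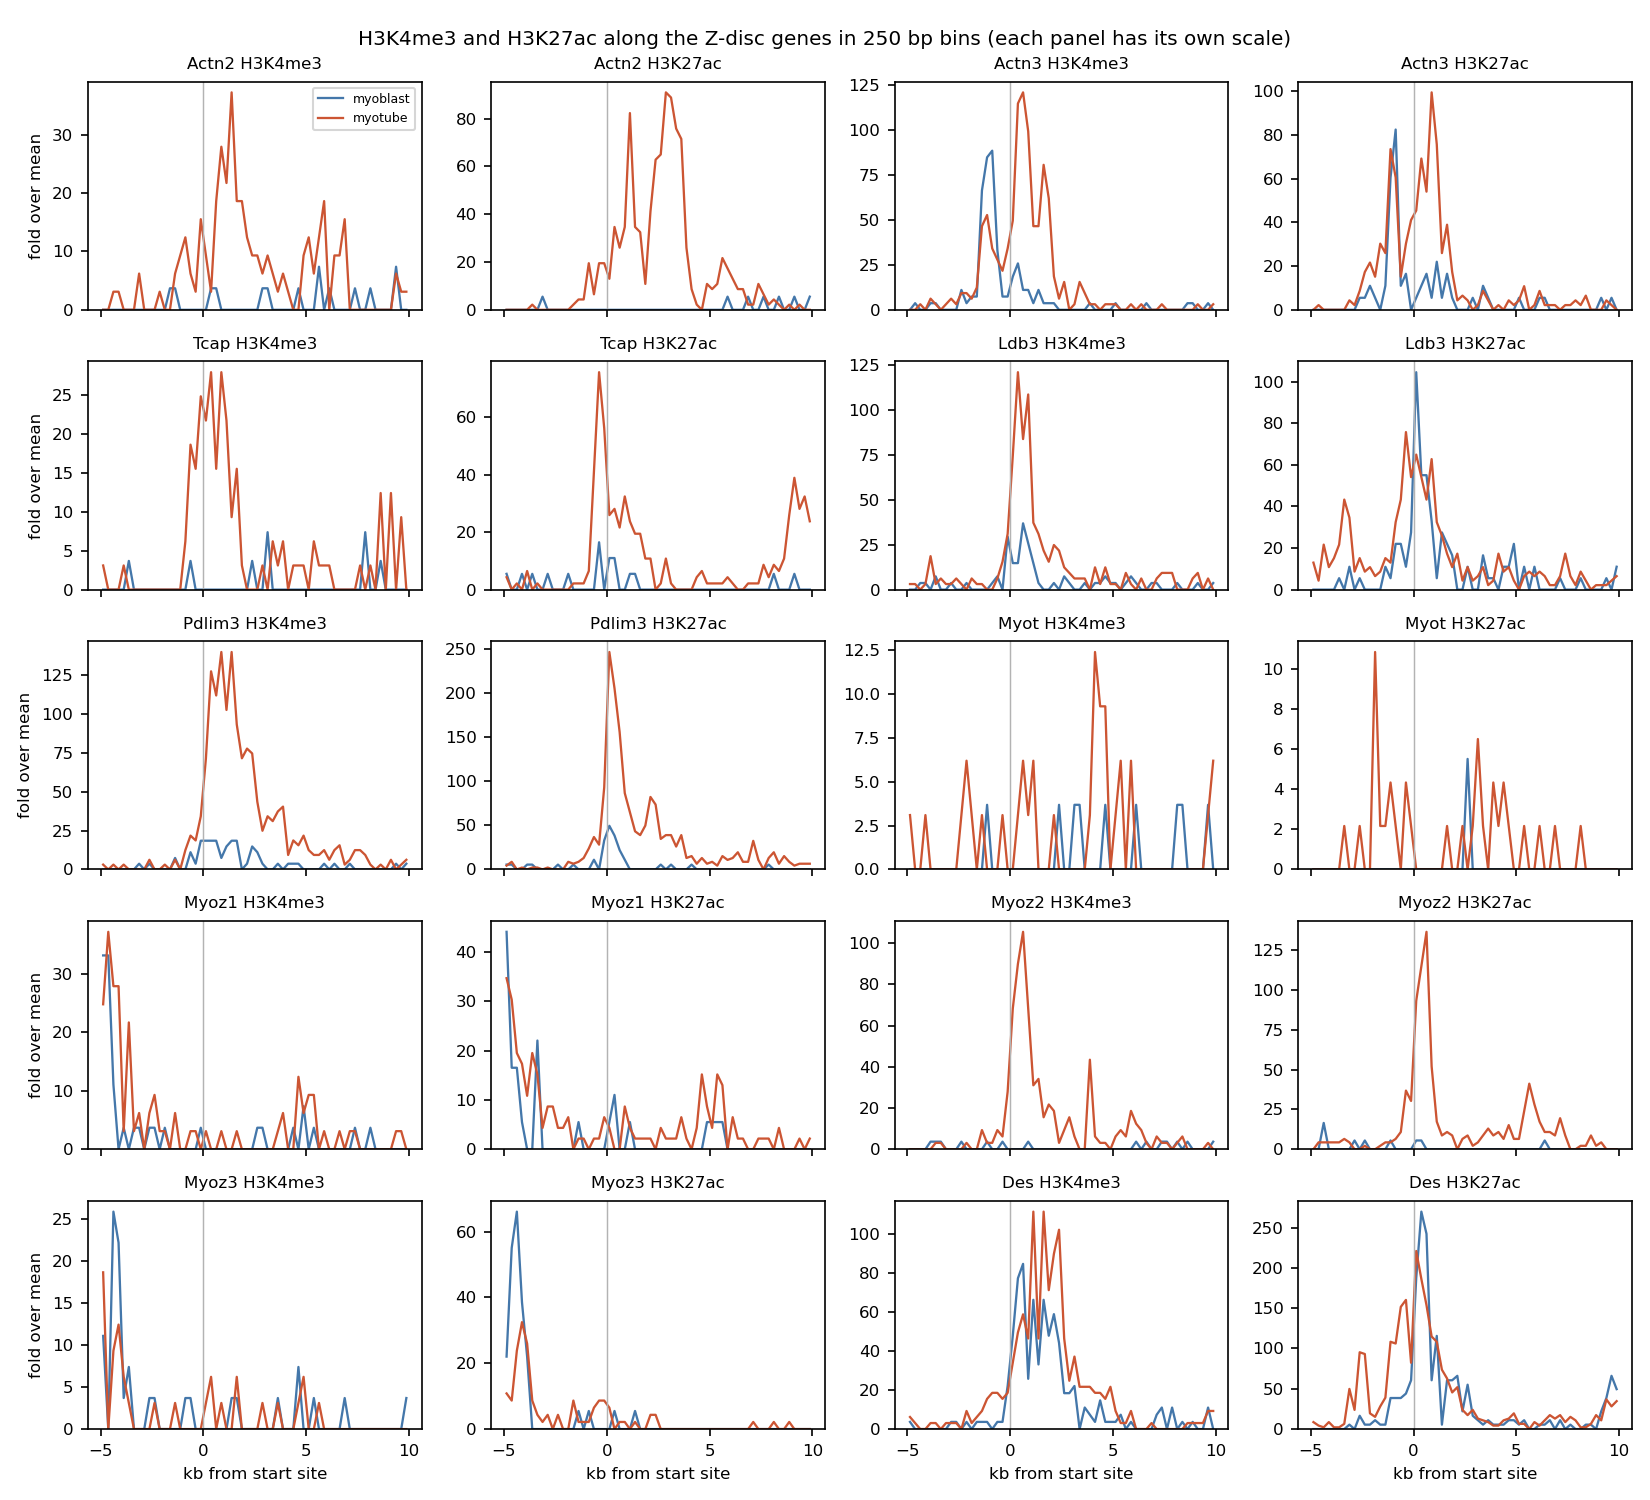
Fold over the library mean in 250 bp bins around the TSS of Z-disc genes, with distance from the TSS in kb on the horizontal axis (transcription runs to the right), blue lines for the myoblast and red lines for the myotube library. At Actn3 the myotube H3K4me3 stood above the myoblast level downstream of the TSS, where 124 reads stood against 18, and not upstream, where 38 stood against 37.

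Myoz2 (ENSMUSG00000028116.7, chr3:122709124-122737908, minus strand) encodes myozenin-2 or calsarcin-1, which binds alpha-actinin and calcineurin in slow and cardiac muscle. H3K4me3 was 2 reads and 0.922-fold (0.112 to 3.33) in myoblasts and 122 reads and 47.3-fold (39.3 to 56.5) in myotubes. H3K27ac was 2 reads and 1.38-fold (0.167 to 4.97) and 222 reads and 60.1-fold (52.4 to 68.5), and H3K4me2 was 2.38-fold and 24.7-fold. H3K4me3 and H3K27ac could not be told from the library mean in myoblasts, where H3K4me2 (1.03 to 4.69) and H3K4me1 (1.95 to 5.37) were above it, and H3K4me3 and H3K27ac were among the strongest of the 10 genes in myotubes. The ratio was 51.3 for H3K4me3 (13.9 to 428) and 43.7 for H3K27ac (11.9 to 363), both resting on 2 myoblast reads, and 10.4 for H3K4me2 (5.05 to 24.8). Of the myotube H3K4me3 reads, 107 lay downstream of the TSS and 15 upstream. H3K36me3 over the body went from 0.707-fold (0.531 to 0.922) to 3.54-fold (3.03 to 4.13), a ratio of 5.01 (3.67 to 6.95). A microRNA gene, AC121540.1, lies within this body.

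The other myozenins and myotilin had little of the active marks at their promoters. Myoz1 (ENSMUSG00000068697.6, chr14:21468324-21475762, minus strand), the calsarcin of fast fibres, had 1 and 4 H3K4me3 reads, 0.461-fold (0.0117 to 2.57) and 1.55-fold (0.423 to 3.97). Myoz3 (ENSMUSG00000049173.7, chr18:60735970-60751442, minus strand), another fast-fibre calsarcin, had 2 and 4 reads, 0.922-fold (0.112 to 3.33) and 1.55-fold (0.423 to 3.97). Myot (ENSMUSG00000024471.6, chr18:44493728-44515378, plus strand), which encodes the actin-bundling protein myotilin, had 0 and 5 reads, the latter 1.94-fold (0.629 to 4.52). All 6 intervals take in the library mean, and no difference in H3K4me3 could be called at this depth.

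H3K4me2 was above the library mean at all 3 of these promoters in myotubes, at 4.03-fold (2.26 to 6.65) at Myot, 3.49-fold (1.86 to 5.98) at Myoz1 and 6.45-fold (4.13 to 9.60) at Myoz3. Myot went from 0 to 15 reads, at least 4.51-fold higher against the floor of 3 reads with an exact lower limit of 3.24, and Myoz3 from 6 to 24, a ratio of 3.61 (1.44 to 10.8), while Myoz1 went from 6 to 13, a ratio of 1.96 (0.693 to 6.27). H3K27ac at Myoz3 was 1.38-fold (0.167 to 4.97) and 4.60-fold (2.68 to 7.36), called higher at 3.34 with an interval that takes in 1 (0.794 to 29.8). This call was lost with 5 reads added, with a minimum of 30 reads and in the windows 1 kb and 2 kb downstream of the TSS. At Myoz1 H3K27ac was 2.06-fold and 2.98-fold, with a ratio of 1.44 (0.381 to 8.05), and at Myot there were 0 and 4 reads. Over the bodies, Myoz1 had H3K36me3 at 1.19-fold (0.734 to 1.81) in myoblasts and 3.32-fold (2.32 to 4.59) in myotubes, a ratio of 2.80 (1.59 to 5.04). Myot was called higher at 2.72 (1.27 to 6.10) with levels below the library mean in both, 0.211-fold (0.109 to 0.369) and 0.574-fold (0.351 to 0.887). Myoz3 was also below it in both, at 0.427-fold (0.249 to 0.684) and 0.574-fold (0.314 to 0.963).

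Des (ENSMUSG00000026208.9, chr1:75356904-75365154, plus strand) encodes desmin, the intermediate filament protein of muscle. H3K4me3 at its promoter was 33.2-fold (26.0 to 41.8) in myoblasts and 33.0-fold (26.3 to 40.7) in myotubes, and H3K4me2 39.9-fold (33.4 to 47.3) and 37.1-fold (31.2 to 43.8). H3K27ac was 117.6-fold (101 to 137) and 146.9-fold (135 to 160), above 99.4% and 99.9% of promoters. Des was thus strongly marked in both cell types, and H3K4me3, H3K4me2, H3K27ac and H3K4me1 at its promoter were within 2-fold under the main scaling. The ratio was 0.993 (0.717 to 1.38) for H3K4me3, 0.930 (0.728 to 1.19) for H3K4me2, 1.25 for H3K27ac (1.05 to 1.49) and 0.582 for H3K4me1 (0.385 to 0.869). The H3K27ac log2 ratio of 0.32 became 1.15, past 2-fold, with scaling by shared promoters.

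The sides of the Des promoter differed in H3K27ac, which had 33 reads in myoblasts and 231 in myotubes upstream of the TSS, a ratio of 2.75 (1.91 to 4.10), and 138 and 312 downstream, a ratio of 0.889 (0.726 to 1.09). Over the short body of Des, H3K36me3 was 24.4-fold (22.3 to 26.6) in myoblasts, above 99.9% of gene bodies, and 21.4-fold (18.9 to 24.2) in myotubes, a ratio of 0.879 (0.754 to 1.02). It stood at 28.2-fold and 23.8-fold in the part nearest the start, and at 21.2-fold and 19.9-fold in the part nearest the end. A processed transcript on the other strand, Gm15179, overlaps this body. H3K27me3 over the body was called higher, at 17 and 33 reads, 0.855-fold (0.498 to 1.37) and 2.32-fold (1.60 to 3.26), a ratio of 2.72 (1.47 to 5.20).

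Ordered by H3K4me3 reads in myoblasts, Des (72), Actn3 (55), Ldb3 (36) and Pdlim3 (26) came first, and no neighbours among these 4 differed beyond counting error. The step from Pdlim3 to Actn2 (2) did, and the 6 remaining genes, at 0 to 2 reads, could not be ordered. In myotubes Pdlim3 (173), Actn3 (162), Ldb3 (142) and Myoz2 (122) came first without a difference between neighbours. Des (85), Tcap (51) and Actn2 (31) followed, each below its neighbour beyond counting error, and Myot (5), Myoz1 (4) and Myoz3 (4) came last and could not be ordered. All promoter windows have the same length, but that of Actn3 takes in the start of Zdhhc24. Of its H3K4me3 reads, 37 in myoblasts and 38 in myotubes lay upstream. Downstream of the TSS alone, myoblasts had 18 reads at Actn3, beside 64 at Des, 25 at Ldb3 and 17 at Pdlim3. For H3K27ac Des led in both cell types, with 171 and 543 reads, followed by Ldb3 (60) in myoblasts and by Pdlim3 (406) in myotubes, and both steps exceeded counting error.

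H3K4me1 at the promoter was called higher for 4 genes, Actn2, Tcap, Myot and Myoz2, beside 11.1% of promoters, and lower for none, beside 18.4%. The median log2 ratio was 0.56 against 0.00 over all promoters. Myot went from 1 to 9 reads, a ratio of 9.29 (1.29 to 407), and Myoz2 from 3.36-fold to 9.17-fold, a ratio of 2.73 (1.53 to 5.09). The Myot call was lost with a minimum of 30 reads and with 500 bp either side of the TSS, where Myoz1 was called higher. In the window 1 kb downstream of the TSS the calls at Myot and Myoz2 were lost and Ldb3 was called lower. Scaling by 10 kb windows changed the scale of H3K4me1 by -0.31 in log2, took the share of higher calls from 37.6% to 19.1%, and added Des as a gene called lower. Ldb3, Myoz1, Myoz3 and Des overlapped an H3K4me1 peak in myoblasts, beside 29.4% of promoters, and Actn2, Tcap, Ldb3, Myoz1, Des and Pdlim3 in myotubes, beside 10.8%.

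H3K27me3 was called lower at the promoters of Actn2, Tcap and Myoz3, 3 genes beside 19.9% of promoters, and higher at none, beside 4.90%. The median log2 ratio was -0.61 against -0.26. Tcap had 10 and 3 reads, a ratio of 0.420 (0.0742 to 1.63), and Myoz3 14 and 3, a ratio of 0.300 (0.0553 to 1.07), and of the 3 the interval of Actn2 alone lies under 1. In myotubes 3 reads are 0.765-fold the library mean, so the depth of this library sets how far a fall can be seen. Scaling by shared promoters changed the scale by 0.32 in log2 and the share of higher calls from 19.7% to 44.3%, after which Tcap was within 2-fold and Myoz1 had gone from -0.08 to 0.19. None of the 3 was called lower with 500 bp either side of the TSS, where Pdlim3 was called higher, or with a minimum of 30 reads. No promoter of the 10 genes overlapped an H3K27me3 peak in either cell type, and few promoters did, 5.03% in myoblasts and 1.41% in myotubes.

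H3K36me3 at the promoter window, where little of it is found in either cell type, was called higher for Ldb3 (2.22, 0.954 to 5.35), beside 9.86% of promoters, and lower for Des (0.429, 0.125 to 1.19), beside 16.4%. Both intervals take in 1. The call at Ldb3 was lost with duplicates removed, with reads not extended, with 5 reads added, with a minimum of 30 reads and in the 3 other windows tried. Myoz2 was called higher instead with reads not extended, and Actn3, Myoz2 and Tcap in the window 2 kb downstream of the TSS. The share of higher calls was 37.6%, and it was 48.1% with 10 kb windows and 61.5% with shared promoters, which changed the scale by 0.16 and 0.29 in log2, took Des within 2-fold and turned Tcap from -0.03 to 0.12 and 0.24. The call at Des was also lost with 5 reads added, with a minimum of 30 reads and in the window 1 kb downstream of the TSS.

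Over the bodies of 9 genes, all but Tcap, H3K36me3 was called higher for 5, Actn2, Actn3, Myot, Myoz1 and Myoz2, beside 7.93% of gene bodies, and lower for none, beside 7.66%. The median log2 ratio was 1.33 against 0.00. Ldb3, Pdlim3 and Des, whose promoters had H3K4me3 peaks in both cell types, had bodies above 5-fold in myoblasts and ratios within 2-fold, and so Actn3 is the only gene with an H3K4me3 promoter peak in myoblasts that was called higher here. The share of higher calls was 50.9%, and 66.3% and 77.6% with 10 kb windows and shared promoters, and the same 5 genes were called higher under both, while the log2 ratio of Des, -0.19, became 0.11 with shared promoters.

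H3K4me3 over the bodies was called higher for 6 of the 9 genes (Actn2, Actn3, Ldb3, Myoz1, Myoz2 and Pdlim3), beside 6.45%, and lower for none, beside 5.53%, and shared promoters moved the share of higher calls from 53.8% to 72.3% and Myoz3 from -0.11 to 0.08. They also added Myot as higher, beside 1543 of 15898 bodies. The H3K4me3 call at Myoz1 rests on 7 and 20 reads, a ratio of 2.40 with an interval that takes in 1 (0.976 to 6.73). It was lost with 5 reads added and at a minimum of 30 reads. H3K27ac was called higher for 6 (Actn2, Actn3, Myot, Myoz1, Myoz2 and Pdlim3), beside 13.3%, and lower for none, beside 13.1%. Its median log2 ratio was 1.83 against 0.00, and shared promoters moved the share of higher calls from 50.4% to 94.6% and the count to 9, beside 5647 of 14904 bodies. The call at Myot rests on 1 and 19 reads, a ratio of 7.47 (1.19 to 311) with levels below the library mean in both, and it was lost at a minimum of 30 reads. H3K4me2 was called higher for those 6 genes as well, beside 22.3%, and lower for none, beside 11.1%, with a median of 1.75 against 0.22. Its share of higher calls was 66.8%, and 22.8% with 10 kb windows, where Actn3 was lost and Myoz3 was called lower, and 93.6% with shared promoters. The direction of this mark turned with the scaling at Ldb3 (0.34 to -0.29 with 10 kb windows), at Des (-0.13 to 0.56 with shared promoters) and at Myoz3 (-0.62 to 0.02 with shared promoters), as did the median of all bodies (0.22 to -0.29 with 10 kb windows).

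H3K4me1 over the bodies was called higher for 4 genes (Actn2, Myot, Myoz2 and Pdlim3), beside 12.2%, and lower for none, beside 10.6%, and 10 kb windows moved the share of higher calls from 53.6% to 25.1%, added Des as lower and turned Ldb3 from 0.26 to -0.05. H3K27me3 over the bodies was called higher for Ldb3 and Des, 2 of 9 beside 10.8%, and lower for none, beside 1.56%. Its median log2 ratio over the members, 0.16, was near that of all bodies, 0.21, which became 0.52 with shared promoters, where 3945 of 17151 bodies and the same 2 genes were called higher. Actn2 had the most H3K27me3 over its body in myoblasts, 2.02-fold (1.82 to 2.23), and 1.56-fold (1.36 to 1.78) in myotubes, a ratio of 0.773 (0.652 to 0.916). This is a log2 ratio of -0.37 under the main scaling, and shared promoters changed the scale of this mark by 0.32.

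**Figure D4:**
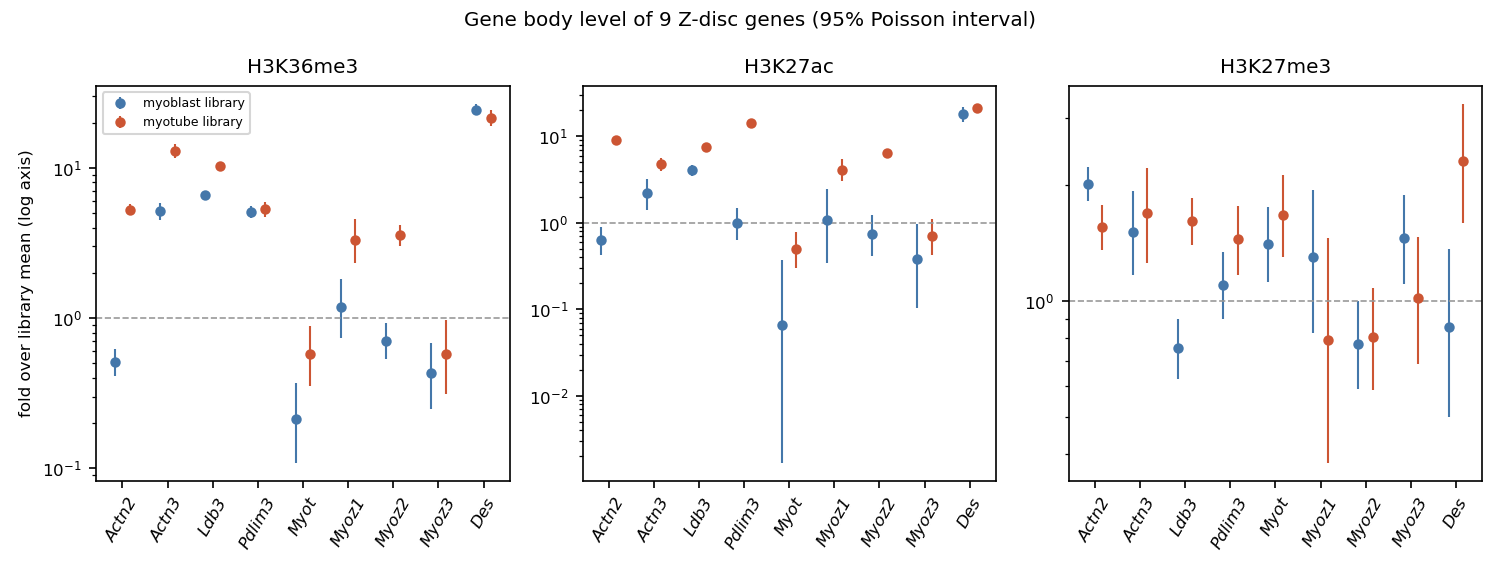
Fold over the library mean (log axis) over the body of 9 Z-disc genes for H3K36me3, H3K27ac and H3K27me3, with blue points for the myoblast and red points for the myotube library and bars for the exact 95% Poisson interval. H3K36me3 at Actn2 went from 0.507-fold to 5.27-fold, while Des stood at 24.4-fold and 21.4-fold.

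H3K27ac peaks more than 1 kb from any annotated coding TSS were counted inside each gene and within 20 kb of it. In myotubes there were 15 inside Actn2, 13 inside Pdlim3, 11 inside Ldb3, 6 inside Myoz2, 3 inside Des and 1 inside Myoz1. In myoblasts there were 4 inside Ldb3, 1 inside Des and none inside the other 8 genes. Outside the gene Des had the most, 5 in myoblasts and 14 in myotubes, and Myoz3 had 4 and 2. Some of these peaks carried H3K4me3 as high as a promoter, such as a myotube peak 15124 bp from the Myoz1 TSS with 75.9-fold in myoblasts and 77.2-fold in myotubes, so the counts are not counts of enhancers. The myoblast H3K27ac library had 1858771 reads against 4725910, and the part of depth in the number of peaks was not tested. The whole H3K27ac peak lists held 34676 peaks in myoblasts and 47039 in myotubes. Gene length ran from 1143 bp at Tcap to 71335 bp at Actn2, and its part was not tested either. No count over all genes is given beside these. A peak was chosen from reads of its own library, so its H3K27ac level there is high by choice, and H3K4me1 is given beside it.

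Peaks named here were chosen after their values were seen. Inside Actn2 a myotube peak of 4454 bp at chr13:12414077-12418530, whose middle lies 16696 bp from the TSS, had 3 H3K27ac reads in myoblasts and 304 in myotubes, and 4 and 104 H3K4me1 reads, a ratio of 26.8 (10.2 to 100). At the far end of Pdlim3 a peak at chr8:46999965-47004648 had 9 and 293 H3K27ac reads and an H3K4me1 ratio of 5.60 (3.41 to 9.67). Downstream of Tcap, 10065 bp from its TSS, a peak at chr11:98253346-98257034 had 5 and 214 H3K27ac reads and an H3K4me1 ratio of 4.51 (3.16 to 6.60). As sites picked from many for their values, these 3 do not stand for the other peaks.

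Near Des and Ldb3 some sites were already marked in myoblasts. A peak of 5569 bp at chr1:75339878-75345446, with its middle at -14242 bp from the Des TSS, had H3K27ac at 77.1-fold in myoblasts and 85.2-fold in myotubes, a ratio of 1.1 (0.969 to 1.26), and H3K4me1 at 29.6-fold and 19.5-fold, a ratio of 0.657 (0.561 to 0.768). A myoblast peak at chr14:35414466-35416113, at -13496 bp from the Ldb3 TSS, had H3K27ac at 50.1-fold and 18.1-fold and H3K4me1 at 30.7-fold and 9.90-fold, a ratio of 0.323 (0.220 to 0.464). The H3K4me1 level there was lower in myotubes, as it was at the Ldb3 promoter (0.641, 0.455 to 0.897), where H3K4me3 was higher. Both sites were picked for their values and do not stand for the other peaks.

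A list of 23 other Z-disc genes gave 13 promoters called higher for H3K4me3 and none lower, beside 4.64% and 8.55% of all promoters, with a median log2 ratio of 2.28. Among them were Ankrd2, Csrp3, Fbxl22, Mypn, Neb, Nrap, Palld, Synpo2, Synpo2l, Ttn, Xirp1 and Xirp2. Neb, which encodes the thin filament protein nebulin, had the highest ratio, with 1 and 161 reads, 135 (24.0 to 5382), and Bag3, which encodes a co-chaperone, the lowest, 51 and 45 reads and 0.742 (0.486 to 1.13). Csrp3, the muscle LIM protein, had 1 and 73 reads, and Ttn, titin, 15 and 222. For H3K27ac 11 were called higher and none lower, beside 6.30% and 39.7% of all promoters, with a median of 0.73. Those higher included Ankrd2, Capza2, Csrp3, Mypn, Neb, Nrap, Palld, Synpo2, Synpo2l and Ttn, and Csrp3, with 0 and 202 reads, was at least 26.5-fold higher against the floor of 3 reads, with an exact lower limit of 21.3. For H3K4me2 12 were higher, beside 3.22% of all promoters, and 4 lower (Bag3, Flnc, Nebl and Synm), beside 35.9%, and these counts were 8 and 9 with 10 kb windows, beside 267 and 9959 of 14451 promoters, and 13 and 1 with shared promoters, beside 1220 and 1622. Over the bodies H3K36me3 was called higher for 8, beside 7.93% of all bodies, with Neb at 7.11 (6.49 to 7.81), and lower for Pdlim5 at 0.439 (0.392 to 0.491).

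Among 12 relatives of the Z-disc proteins that most cell types express, none was called higher or lower for H3K4me3, beside 4.64% and 8.55% of all promoters, and the median log2 ratio was -0.23. For H3K27ac 6 were called lower and none higher, among them Actn1, Csrp1, Flna, Pdlim1 and Vim, with a median of -0.88, beside 39.7% of all promoters called lower, and 2 of the relatives were called lower when H3K27ac was scaled by shared promoters, beside 1509 of 12081 promoters. Actn1, the alpha-actinin of non-muscle cells, had 158 and 95 H3K4me3 reads, a ratio of 0.506 (0.388 to 0.656), where Actn2 stood at 13.0 and Actn3 at 2.48. Vim, which encodes the intermediate filament protein vimentin, had an H3K27ac ratio of 0.465 (0.393 to 0.552) and Des one of 1.25. Over the body, H3K36me3 at Vim was called lower at 0.307 (0.236 to 0.395).

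**Figure D5:**
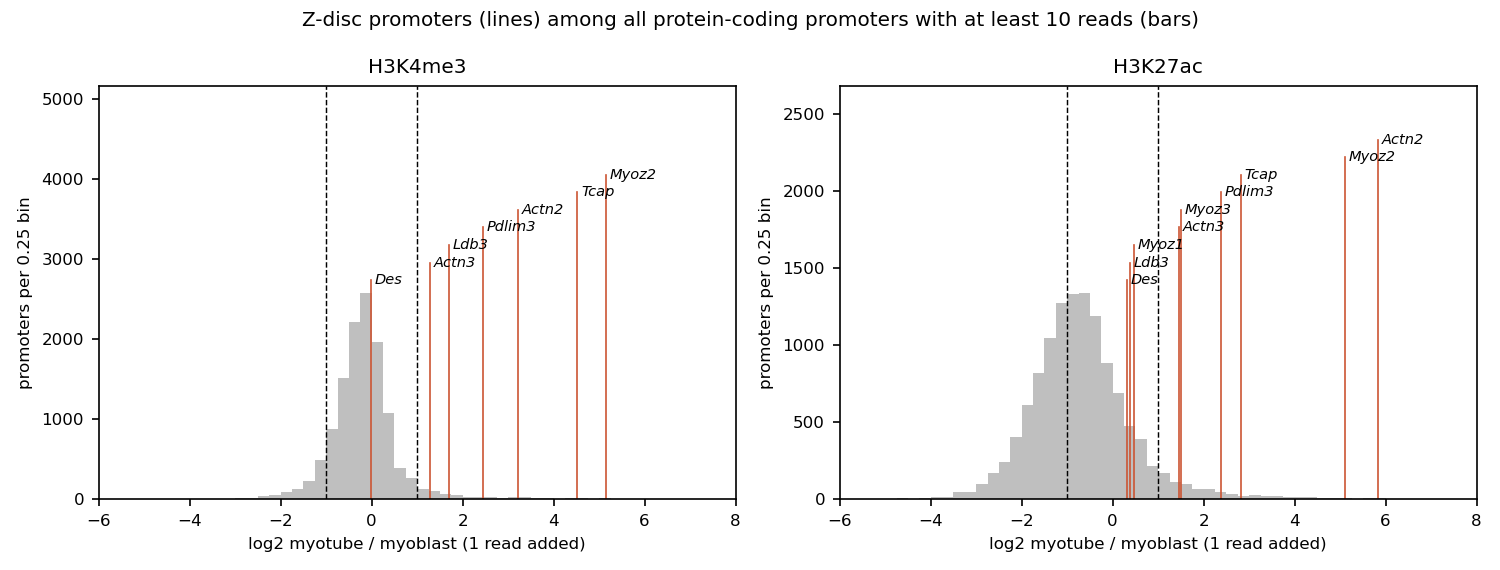
Number of all protein-coding promoters with at least 10 reads by log2 ratio of the myotube to the myoblast library, for H3K4me3 and H3K27ac, with the Z-disc genes that had enough reads marked by red lines at their own ratio with 1 read added and dashed lines at 2-fold. Des lay near the middle for H3K4me3 (-0.01), and Myoz2 lay at 5.15 for H3K4me3 and 5.10 for H3K27ac.

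The members were set beside all other genes by the pattern of their promoter levels over the 12 libraries. The 10 genes whose pattern had the highest Pearson correlation with the median pattern of the members were Myom2 (0.980), Srl (0.975), Cav3 (0.973), Abra (0.965), Actc1 (0.964), Lmod2 (0.964), Tmem182 (0.963), Acta1 (0.962), Neb (0.959) and Myh1 (0.957). Myom2, which encodes an M-band protein, had H3K4me3 at 0.922-fold and 31.8-fold. Of the members themselves, Myoz2 (0.97) and Tcap (0.96) were closest to their median and Myot (0.55) and Des (0.61) furthest. The 12 values of a gene come from 6 marks, some of which, such as H3K4me3 and H3K27ac, lie together on active promoters. The values also share libraries with every other gene, so the correlation is a description.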

How the data were processed

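The authors aligned the myoblast reads to mm9 with Mosaik 1.0.1384 and kept those with a unique place; for myotubes the labels name mm9. Peaks are from MACS, with settings not given in the sources used here. The files they deposited list 1 aligned read of 34 bp per line, used as a count, and the peaks per library, each with a MACS score of at least 50. The peak lists deposited with the myoblast H3K27me3 and H3K27ac samples carry the other mark's track line, and the mark in the track line was used.

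Reads on chromosomes 1 to 19 and X were extended to 150 bp and their midpoints counted. Genes come from GENCODE M1 (Ensembl release 65). A gene with several TSSs was represented by the one with the most H3K4me3 reads. Ratios were scaled by total reads with 1 read added in proportion to library size. A myoblast count of 0 was set to a floor of 3 reads only for at-least folds and for medians with genes at their bound. Levels, calls and the other medians kept the 0. With 1 library per mark and cell type no p-value was computed. The members and lists were chosen with earlier results of these data known. Named are all members, most genes of the other Z-disc and relatives lists that passed 2-fold (H3K4me3, H3K27ac) or were highest or lowest, neighbours that overlap a window and the 10 genes most like the members. The markers are those of myotubes, myoblasts, adipocytes, osteoblasts, fibroblasts, heart, neurons, liver and blood. Alternatives changed the scaling, duplicates, extension, window, TSS, added reads, minimum, fold and body, and a window of 1 kb downstream of the TSS was added after seeing the data. Window counts, midpoints, duplicate removal, ratios, intervals and 2-fold calls were tested on simulated data with Poisson counts. The choice of TSS, peak overlaps, alternative scalings and motif matches were not part of that test. Software was matplotlib 3.10.9, scipy 1.17.1, pandas 2.3.3 and numpy 2.4.6 under Python 3.11.15.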

Additional observations from a re-analysis of the deposited data

How the results depend on the processing

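No paired analysis was possible because each mark had 1 library per cell type, all with replicate number 1. The count of Z-disc promoters called higher in myotubes stayed between 6 and 8 for H3K4me3, between 4 and 7 for H3K4me2 and between 5 and 9 for H3K27ac under all alternatives tried, and that of bodies called higher for H3K36me3 at 5 or 6. The count for H3K4me1, 4 in the main analysis, was 2 in the window 1 kb downstream of the TSS, chosen after seeing the data. The count of promoters called lower for H3K27me3, 3 in the main analysis, was 0 with 500 bp either side of the TSS and 0 with a minimum of 30 reads, and 1 with 2 kb downstream, with 1 kb downstream and with 5 reads added. With the higher minimum fewer promoters were tested, and otherwise the cause was not tested. At 1.5-fold, 1 body was called lower for H3K27me3 in place of 0. No direction of a called value was reversed. The promoter calls of H3K27me3 rest on 10 to 17 myoblast reads and 3 myotube reads, and the promoter ratios of Actn2, Tcap, Myoz2 and Myot on 0 to 2 myoblast H3K4me3 reads, so their size is known only within wide intervals.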
